A study of Mus musculus with 22 samples.

Results

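Catalase, the superoxide dismutases, the glutathione peroxidases and the peroxiredoxins are the enzymes that dispose of superoxide and peroxides, and 10 of their genes were followed through the kidneys of 22 mice. The genes were taken by symbol from a table of 32858 genes: Cat, Sod1, Sod2, Sod3, Gpx1, Gpx3, Gpx4, Prdx1, Prdx3 and Prdx5. All 10 were in the table, and all 10 were among the 17131 genes with enough counts to be tested. The study asked how KW6002 (istradefylline), an adenosine receptor blocker, changes the kidney damage done by cisplatin, a platinum drug used against tumours. RNA was sequenced from 1 kidney library per mouse, with no pooling. All mice were male C57Bl6/J, 8 to 10 weeks old. The vehicle group had 5 mice. A second set of 6 mice received KW6002 alone, 3 mg/kg injected daily into the peritoneum from day -5 to day 7. Cisplatin was given to 5 mice as 6 daily injections of 3 mg/kg from day 0, and the kidneys were collected 72 hours after the last injection. Another 6 mice received both drugs on the same schedules.

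Superoxide dismutases turn superoxide into hydrogen peroxide, in the cytosol (Sod1), in the mitochondrial matrix (Sod2) and outside the cell (Sod3). Hydrogen peroxide is then removed by catalase in the peroxisome, by glutathione peroxidases, several of which carry selenocysteine, or by peroxiredoxins, which are recharged mostly by thioredoxin. The tubule cells of the kidney cortex are packed with mitochondria and peroxisomes, and they are the main source of Gpx3, the glutathione peroxidase of blood plasma.

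Each library held 26471762 to 40510754 counts, with a median of 32721214.5. The group medians were 31739661 counts with vehicle, 30199812.5 with KW6002, 34311202 with cisplatin and 31604187 with both drugs. Levels are given as CPM, after scaling by the trimmed mean of M values (TMM), and differences as log2 fold changes from a single model of all 22 libraries. A gene passed the test at an adjusted p below 0.05. The smallest count behind any member value was 1868 reads, for Gpx4 with vehicle. The tissue label fitted its markers: the 12 proximal tubule genes summed to 46788, 46971, 48882, 51868 and 47231 CPM in the vehicle kidneys, with Kap the most abundant, and none was without counts.

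Mouse numbers in the labels fall into a 300s and a 500s series. Of the vehicle mice 3 were in the 300s and 2 in the 500s, of the KW6002 mice 3 and 3, and all cisplatin and co-treated mice were in the 500s. What the series stands for is not stated. In the 500s alone, the counts of members past the test were 1 higher and 7 lower for cisplatin against vehicle, as in all 22 libraries, and 7 higher and 1 lower for both drugs against cisplatin, whose mice were all of that series. Of the 17761 genes tested in the 500s alone, 5573 were higher and 5635 lower in the first comparison. In the second, 5130 were higher and 5081 lower.

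The superoxide dismutase genes lie apart in the mm10 genome. Sod1 (ENSMUSG00000022982, chr16:90220754-90226329, plus strand) codes for the copper and zinc enzyme of the cytosol, Sod2 (ENSMUSG00000006818, chr17:13006846-13040063, plus strand) for the manganese enzyme of mitochondria, and Sod3 (ENSMUSG00000072941, chr5:52363791-52371418, plus strand) for the secreted copper and zinc enzyme. Cat (ENSMUSG00000027187, chr2:103453849-103485160, minus strand) codes for catalase. Among the glutathione peroxidases, Gpx1 (ENSMUSG00000063856, chr9:108338903-108340343, plus strand) acts on hydrogen peroxide in cytosol and mitochondria. Gpx3 (ENSMUSG00000018339, chr11:54902453-54910377, plus strand) is secreted, and Gpx4 (ENSMUSG00000075706, chr10:80047166-80056439, plus strand) reduces lipid peroxides within membranes. Of the peroxiredoxins, Prdx1 (ENSMUSG00000028691, chr4:116685544-116700822, plus strand) works in the cytosol and Prdx3 (ENSMUSG00000024997, chr19:60864051-60874556, minus strand) in mitochondria. Prdx5 (ENSMUSG00000024953, chr19:6906697-6910106, minus strand) is found in mitochondria, peroxisomes and cytosol. Prdx3 and Prdx5 share chromosome 19 but lie far apart on it.

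Only uniquely aligned reads of 50 bases were counted, so members that share sequence with other genes can be counted too low or mixed with them. Of the 50-base stretches in its transcripts, Gpx4 shared 34.7% with other genes, mainly Gpx4-ps2, which had 679 counts against 61296 for Gpx4 over all libraries. Sod2 came second and shared 2107 of its 10012 stretches with several genes, the most counted being Cdkn1a (291949 counts against 160076 for Sod2). Prdx1 shared 8.81% and Sod1 3.42%. Prdx5 overlaps Trmt112 on the opposite strand by 409 exonic bases, which made up its shared 15.5%. Trmt112 held 6914 counts and Prdx5 753135. The libraries were made with a stranded kit, but whether strand was used in counting is not stated. Cat, Sod3, Gpx1, Gpx3 and Prdx3 shared none.

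Promoter sequences are shown for Prdx1 and Sod1, the members whose windows hold the core of the antioxidant response element, and for Sod2 and Cat, which fell clearly with cisplatin below. RefSeq windows of 300 bases, from 250 bases before to 50 bases after a start site, were available for 9 of the 10 members on build GRCm38.p6. Sod3 has no entry. Capitals mark TGACNNNGC, the core of the element bound by the factor Nfe2l2, and GGGCGG, the GC box, read on both strands. The first stood in 12.4% of all 32851 windows and the second in 35.7%. The windows are chr4:116685349-116685648 (plus strand) for Prdx1, chr16:90220512-90220811 (plus) for Sod1, chr17:13007589-13007888 (plus) for Sod2 and chr2:103485104-103485403 (minus) for Cat.
Prdx1: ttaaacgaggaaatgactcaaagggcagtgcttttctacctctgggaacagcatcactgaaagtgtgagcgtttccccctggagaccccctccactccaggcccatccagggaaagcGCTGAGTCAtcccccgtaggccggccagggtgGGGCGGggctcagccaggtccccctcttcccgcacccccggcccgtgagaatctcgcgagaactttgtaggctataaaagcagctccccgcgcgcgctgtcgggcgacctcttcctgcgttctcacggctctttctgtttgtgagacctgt
Sod1: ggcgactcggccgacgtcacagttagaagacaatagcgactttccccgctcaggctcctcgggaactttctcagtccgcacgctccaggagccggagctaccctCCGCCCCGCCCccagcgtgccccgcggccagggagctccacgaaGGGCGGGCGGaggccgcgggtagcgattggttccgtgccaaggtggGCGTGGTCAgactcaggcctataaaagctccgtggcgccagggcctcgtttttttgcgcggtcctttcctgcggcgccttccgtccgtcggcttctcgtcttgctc
Sod2: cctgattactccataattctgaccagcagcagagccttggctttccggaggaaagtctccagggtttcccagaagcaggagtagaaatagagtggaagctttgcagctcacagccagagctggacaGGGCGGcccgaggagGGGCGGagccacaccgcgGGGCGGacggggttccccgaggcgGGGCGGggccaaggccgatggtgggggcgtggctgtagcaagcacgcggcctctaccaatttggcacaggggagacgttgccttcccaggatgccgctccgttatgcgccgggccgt
Cat: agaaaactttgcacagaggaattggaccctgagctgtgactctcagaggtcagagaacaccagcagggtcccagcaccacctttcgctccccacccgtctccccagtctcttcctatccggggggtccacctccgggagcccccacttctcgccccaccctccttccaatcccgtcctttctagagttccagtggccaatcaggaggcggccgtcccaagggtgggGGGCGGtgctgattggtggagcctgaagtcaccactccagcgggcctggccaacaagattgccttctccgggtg

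Prdx1 and Sod1 each held 1 match to TGACNNNGC, both on the strand opposite to the gene, 133 and 56 bases before the start. The matches, read on their own strand, are TGACTCAGC in Prdx1 and TGACCACGC in Sod1. GGGCGG stood 4 times in Sod2, 4 times in Sod1, where neighbouring matches overlapped each other, and 1 time each in Cat and Prdx1. No match to one motif overlapped a match to the other in these windows. All 9 members with an entry held GGGCGG in at least 1 window, and TGACNNNGC was absent from the windows of Cat, Sod2, Gpx1, Gpx3, Gpx4, Prdx3 and Prdx5. A match describes letters and says nothing of binding.

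Gpx3 was by far the most abundant member in vehicle kidneys. Per kilobase of exon, its level was 14212 ± 1004 CPM (SD, n = 5), against 1152 ± 98.7 for Gpx1, the second in the order. Prdx5 followed at 556 ± 30.7 and Cat at 506 ± 6.44 CPM per kilobase, and the ranges of these 2 neighbours overlapped. Prdx1 (153 ± 7.62), Prdx3 (145 ± 4.39) and Sod3 (132 ± 13.5) came next, and each overlapped its neighbour in range. The lowest levels were those of Sod1 (66.8 ± 2.80), Gpx4 (43.1 ± 3.37) and Sod2 (30.0 ± 0.811), with no overlap between neighbours. The annotated length matters for Sod1. Divided by its principal transcript of 641 bases in place of its 3970 exonic bases, Sod1 stood at 413 ± 17.3 CPM per kilobase, next after Cat, and the other members kept their sequence.

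**Figure D1:**
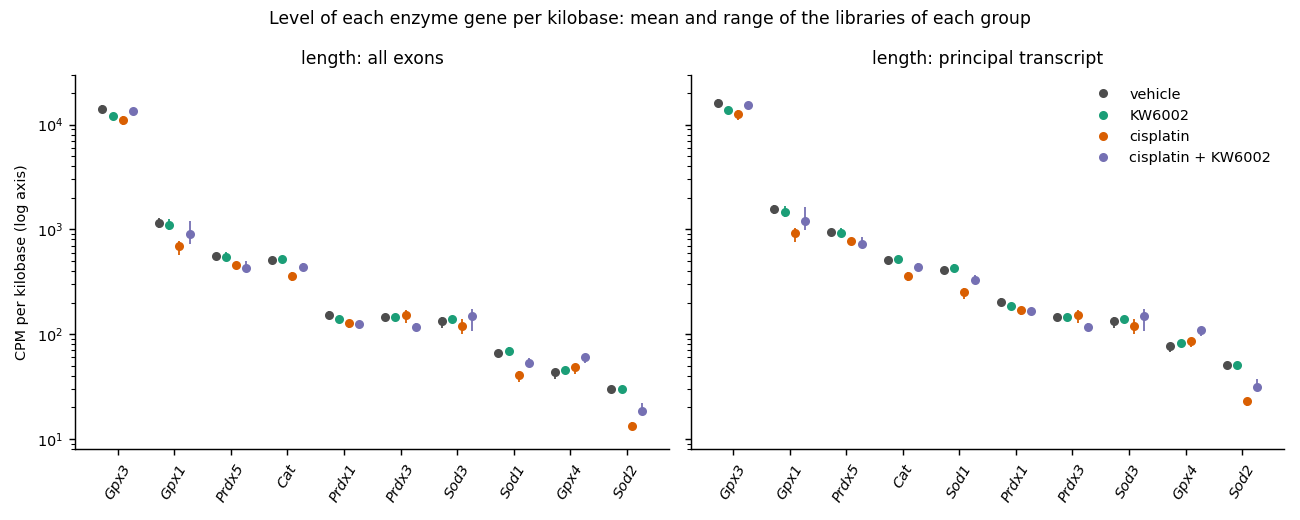
Level of each enzyme gene in CPM per kilobase on a log axis, by all exons (left) or by the principal transcript (right). Points are group means and lines run from the lowest to the highest library (n = 5, 6, 5 and 6). Gpx3 stands above all others in each group and Sod2 is lowest, at 30.0 CPM per kilobase of exon with vehicle and 13.4 with cisplatin.

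Per kilobase of exon, order and neighbours shifted in the cisplatin kidneys, while per kilobase of the principal transcript the order was that of vehicle. Gpx3 (11037 CPM per kilobase of exon, mean), Gpx1 (686), Prdx5 (459.7) and Cat (358) still led, now without overlap between neighbours. Prdx3 (153) stood before Prdx1 (128) and Sod3 (119), each overlapping its neighbour. Gpx4 (48.2) and Sod1 (41.2) overlapped, and Sod2 was last at 13.4 CPM per kilobase. The 10 genes together held 2.97 ± 0.196% of all counts of a library with vehicle, 2.64 ± 0.109% with KW6002, 2.65 ± 0.162% with cisplatin and 3.06 ± 0.107% with both drugs (SD). Gpx3 alone was 81.1 ± 0.991% of the members' counts with vehicle and 82.1 ± 0.389% with cisplatin.

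Cisplatin against vehicle asks what the drug does to these genes. With cisplatin, 7 of the 10 genes fell, 1 rose and 2 did not pass. Sod2 fell most, followed by Gpx1, Sod1 and Cat, and Gpx3, Prdx5 and Prdx1 fell by less, while Gpx4 was slightly higher. Of all 17131 genes, 34.6% were higher and 35.9% lower at this threshold. The groups did not overlap for the same 7 members that fell, against 27.9% of all genes lower and 27.4% higher without overlap. The members had a median log2 fold change of -0.32, and all genes tested -0.01. Whether fewer cells of a type or less RNA per cell lay behind a lower level cannot be told apart in whole kidney.

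Sod2, the mitochondrial dismutase, had 300.3, 286, 308, 304 and 302 CPM in the 5 vehicle kidneys. With cisplatin the 5 values were 120.5, 132, 135, 138 and 145 CPM. Every cisplatin kidney was below every vehicle kidney, and both groups were tight. The means were 300.0 ± 8.12 CPM (SD, n = 5) and 134 ± 8.92 CPM (SD, n = 5), so Sod2 was at 0.446 of its vehicle level (log2 fold change -1.16, SE 0.0603, adjusted p = 9.10e-14).

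The cytosolic dismutase Sod1 had 265, 266, 267, 279 and 248 CPM with vehicle and 139.7, 176, 169.5, 176 and 157 CPM with cisplatin. Again no kidney of one group reached the other. Sod1 fell to 0.617 of vehicle (log2 fold change -0.70, SE 0.0649, adjusted p = 2.02e-09). For Sod3, the secreted dismutase, the groups overlapped, at 432 to 549 CPM with vehicle and 375 to 520.1 with cisplatin. Its log2 fold change of -0.15 did not pass (95% interval -0.37 to 0.08, adjusted p = 0.233). In the settings other than leaving out a library, Sod3 ran from -0.29 to 0.07 and did not pass.

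Catalase values were 1293, 1329.5, 1335, 1331 and 1319 CPM with vehicle and 840.4, 950.2, 890.1, 972 and 1019 CPM with cisplatin. The vehicle kidneys lay close together, the cisplatin kidneys were more spread, and the groups were apart. Cat fell from 1322 ± 16.8 CPM (SD, n = 5) to 934 ± 70.0 CPM (SD, n = 5) (log2 fold change -0.50, SE 0.0570, adjusted p = 5.28e-08).

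Among the glutathione peroxidases, Gpx1 had 1838, 1773, 1594, 1605 and 1490.2 CPM with vehicle and 819.5, 1079.5, 956, 977 and 1114 CPM with cisplatin. All cisplatin values were the lower ones, and Gpx1 fell to 0.596 of vehicle (log2 fold change -0.75, SE 0.125, adjusted p = 1.40e-05). Gpx3, the plasma enzyme, had 28097, 26731, 23191, 25462 and 25351 CPM with vehicle and 17755, 21848, 19131, 19939.5 and 21376 CPM with cisplatin. Its groups came close without touching (log2 fold change -0.36, SE 0.0770, adjusted p = 2.17e-04). Gpx4, which protects membrane lipids, went the other way: it had 79.0, 74.9, 77.5, 75.9 and 64.3 CPM with vehicle and 72.1, 84.4, 86.6, 86.3 and 86.2 CPM with cisplatin. In each group of Gpx4 a single kidney was well below the other 4, and the groups overlapped. The rise was small (log2 fold change 0.16, SE 0.0666, adjusted p = 0.0347). That call was lost without vehicle replicate 2 or 5 or cisplatin replicate 2, 3, 4 or 5 (log2 fold changes 0.11 to 0.16, adjusted p = 0.0514 to 0.128) and with no filter on low counts (adjusted p = 0.0595). In the settings other than leaving out a library, the Gpx4 log2 fold change ran from 0.16 to 0.38.

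The peroxiredoxins among the members moved little, while Prdx6 and Prdx4, given further below, moved more. Prdx1 was at 451 to 507 CPM with vehicle and 351 to 407 with cisplatin, apart and lower (log2 fold change -0.26, SE 0.0538, adjusted p = 1.85e-04). Prdx5 was at 1084 to 1247 and 912 to 1048 CPM, also apart and lower (log2 fold change -0.28, SE 0.0692, adjusted p = 0.00121). Prdx3, the mitochondrial peroxiredoxin, had 218, 219, 219.9, 210.2 and 205 CPM with vehicle and 222, 254, 229.6, 236 and 189.9 CPM with cisplatin. Its cisplatin kidneys fell on both sides of the vehicle range, replicate 5 below it and the other 4 above it. The log2 fold change of 0.08 did not pass (95% interval -0.04 to 0.19, adjusted p = 0.227), but without cisplatin replicate 5 it was 0.13 and passed (adjusted p = 0.0129).

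**Figure D2:**
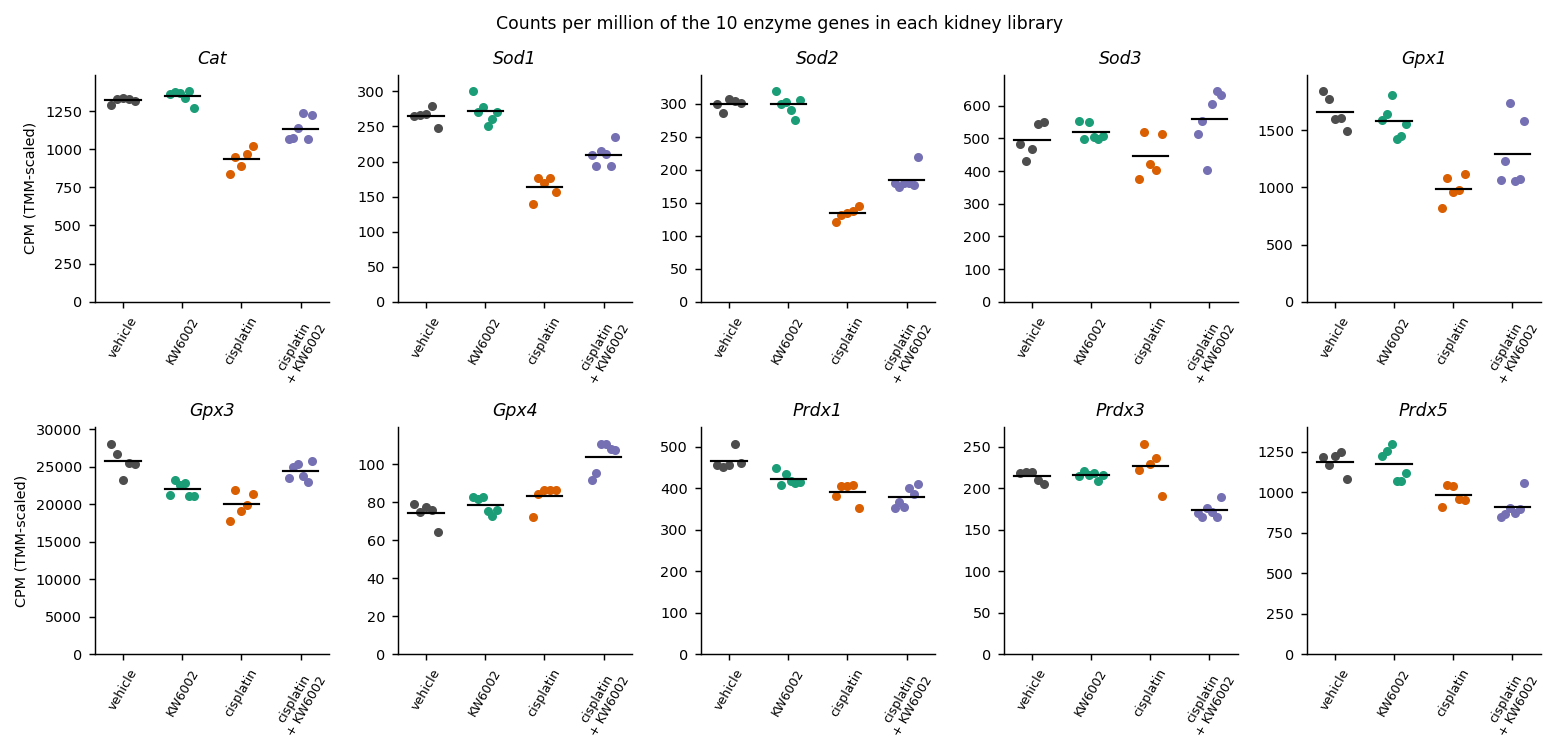
CPM of the 10 enzyme genes in each of the 22 kidneys, by group (n = 5, 6, 5 and 6), with each axis starting at 0. Points are single mice and lines are group means. Sod2 falls from 300.0 to 134 CPM with cisplatin and stands at 185 with both drugs, and Prdx3 is lowest with both drugs, at 173 CPM.

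The choice of scaling bore on the smaller changes. When library totals were the only scaling, the median over all genes moved up by 0.22 to 0.20. Then 8157 genes were higher and 4244 lower, against 5930 and 6155 with TMM. Under it 2 members were higher and 4 lower: Sod2, Gpx1, Sod1 and Cat still fell, Gpx4 rose, Prdx3 gained a rise (0.29), and Gpx3 (-0.15), Prdx5 (-0.06) and Prdx1 (-0.04) did not pass. Relative to that median, the changes were -0.35 for Gpx3, -0.26 for Prdx5, -0.25 for Prdx1 and 0.09 for Prdx3. Sod3 stood at 0.07 there and did not pass. Over the settings other than leaving out a library, this scaling among them, Cat ran from -0.51 to -0.28 and Gpx4 from 0.16 to 0.38.

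Markers of tubule cells also changed with cisplatin. The proximal tubule markers had a median log2 fold change of -3.42, against -0.32 for the members. All 12 proximal tubule markers fell with cisplatin, and their sum was 3535, 4947, 4271, 4545 and 6139 CPM in the 5 kidneys, with Slc27a2 the most abundant and none at 0 counts. The 4 markers of the thick ascending limb all fell, from 4720.2, 5091, 7825, 6802 and 7395 CPM summed with vehicle to 2229, 2366, 2047, 2229.5 and 2034 CPM with cisplatin, with Umod the most abundant in both groups. All 7 injury markers rose. They summed to 84.9, 85.5, 81.6, 92.6 and 85.8 CPM with vehicle, led by Krt8, and to 2700.3, 2509.8, 2587, 2424 and 1539 CPM with cisplatin, led by Lcn2. Each kidney with cisplatin thus lay apart from each vehicle kidney on all 3 sums. The part of these shifts in the members' changes was not tested.

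**Figure D3:**
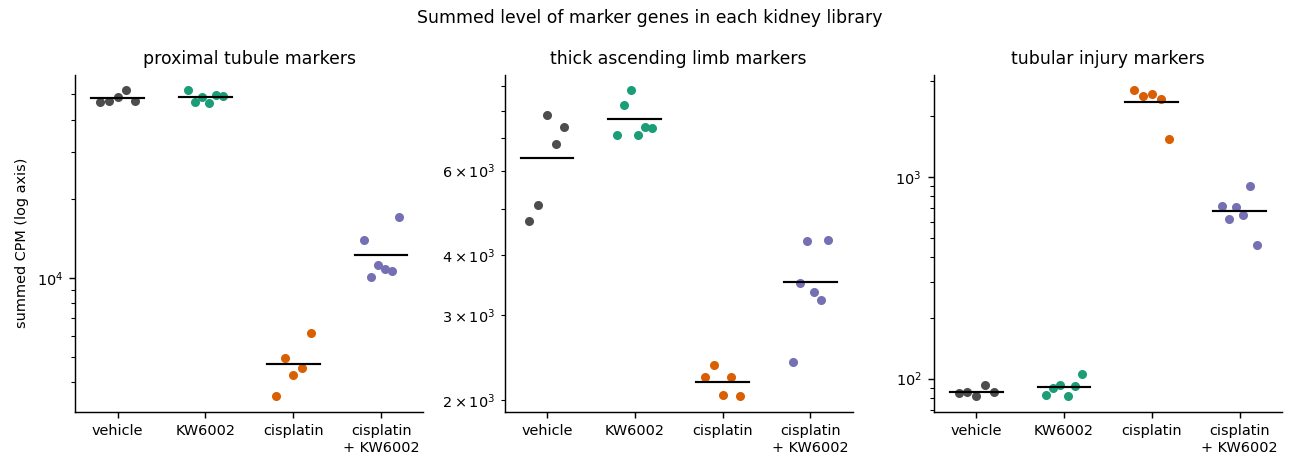
Summed CPM of the proximal tubule, thick ascending limb and tubular injury markers in each kidney, on log axes, by group (n = 5, 6, 5 and 6). Points are single mice and lines are group means. Proximal tubule markers average 48348 CPM with vehicle, 4687 with cisplatin and 12257 with both drugs.

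Markers of the distal convoluted tubule all fell with cisplatin, 3 of 3 with a median of -4.59, from 1589 to 1653 CPM summed with vehicle to 45.6 to 90.7. Other cell types varied. Of the markers tested, 3 of 5 of intercalated cells fell, and of 4 principal cell markers 1 rose and 1 fell. Of 4 podocyte markers 3 fell and 1 rose, of 5 endothelial markers 2 fell and 1 rose, and of 6 smooth muscle and pericyte markers 3 rose and 1 fell. All 5 fibroblast markers rose, with sums of 173 to 374 CPM with vehicle and 766 to 1005 with cisplatin. Of 6 macrophage markers 2 rose and 2 fell. T cell markers (3 of 4 tested fell) and B cell markers (3 of 4 fell) were near 0 in all groups, at 3.82 and 2.32 CPM summed with vehicle. All 6 red blood cell markers tested fell, with a median of -9.89, from sums of 138 to 461 CPM with vehicle to 4.69 to 16.6 with cisplatin. Slc4a1 counts among both the red blood cell and the intercalated cell markers. By edgeR, 0 of 3 neutrophil, 0 of 5 fat and 0 of 1 adrenal markers tested passed, none of them had an unadjusted p below 0.05, and DESeq2 called 0.

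KW6002 added to cisplatin, against cisplatin alone, asks how these genes differ when KW6002 is also given. Its injections began on day -5, before the first cisplatin injection. The injury markers given below differed between these groups as well. With both drugs 7 of the 10 genes were higher than with cisplatin alone, 1 was lower and 2 did not pass. All 3 dismutases, catalase and all 3 glutathione peroxidases rose, and Prdx3 fell. Of the 7 that fell with cisplatin, 5 were among those that rose, and both comparisons use the same 5 cisplatin kidneys. Of all genes, 28.6% were higher and 27.2% lower. The groups did not overlap for 5 members higher (Cat, Sod1, Sod2, Gpx3 and Gpx4) and 1 lower (Prdx3), where 19.3% of all genes were higher and 18.5% lower without overlap. The median over the members was 0.30, and over all genes 0.01.

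In the 6 kidneys with both drugs, Sod2 had a lowest, median and highest value of 173, 179.6 and 219 CPM. The cisplatin range was 120.5 to 145 CPM, so the groups were apart. Replicate 6 stood above the other 5 of its group. Sod2 rose from 134 ± 8.92 CPM (SD, n = 5) to 185 ± 17.0 CPM (SD, n = 6) (log2 fold change 0.46, SE 0.0574, adjusted p = 4.94e-07).

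Sod1 had 194, 210.1 and 235 CPM as lowest, median and highest value with both drugs. All were above the cisplatin kidneys, which ended at 176 CPM (log2 fold change 0.36, SE 0.0622, adjusted p = 4.21e-05). Sod3 had 404, 579.8 and 644 CPM, with replicates 1 and 3 inside the cisplatin range and replicate 3 the lowest. The overlap left a less certain rise (log2 fold change 0.32, SE 0.104, adjusted p = 0.0115). Catalase had 1065, 1106 and 1235 CPM, and its lowest co-treated kidney was above the highest cisplatin kidney (log2 fold change 0.28, SE 0.0546, adjusted p = 1.57e-04).

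Gpx1 was the most uneven member with both drugs. Its lowest, median and highest values were 1054, 1149 and 1739 CPM, with replicates 3 and 6 far above the other 4. Of the other 4, 3 lay within the upper part of the cisplatin range and replicate 2 lay above it, and the rise was 0.38 (SE 0.120, adjusted p = 0.00945). Gpx3 had 22953, 24349 and 25778 CPM and was apart from cisplatin (log2 fold change 0.29, SE 0.0739, adjusted p = 0.00228). Gpx4 had 91.6, 108 and 111 CPM, above every cisplatin kidney (log2 fold change 0.32, SE 0.0637, adjusted p = 1.77e-04).

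Prdx3 went against the members that rose. It had 165, 171 and 189.5 CPM with both drugs, all below the 5 cisplatin kidneys. The highest co-treated value came close to the lowest cisplatin value of 189.9 CPM, and Prdx3 fell from 226 ± 23.4 CPM (SD, n = 5) to 173 ± 8.94 CPM (SD, n = 6) (log2 fold change -0.39, SE 0.0540, adjusted p = 2.58e-06). Prdx1 was at 352 to 409.7 CPM, inside and around the cisplatin range, with a log2 fold change of -0.04 (95% interval -0.15 to 0.07, adjusted p = 0.509). Prdx5 was at 848 to 1056 CPM, with -0.12 (95% interval -0.25 to 0.02, adjusted p = 0.139). Prdx5 passed as lower without co-treated replicate 6 (-0.17, adjusted p = 0.0236) and with scaling by library size alone (-0.18), which made 2 members lower in each.

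Tubule markers were higher with both drugs than with cisplatin alone. Of the 12 proximal tubule markers 11 rose, and their sums ran from 10042 to 17005 CPM, above all cisplatin kidneys and below all vehicle kidneys, with Slc34a1 the most abundant and none at 0 counts. Of the 4 thick ascending limb markers 3 rose (sums 2398 to 4311 CPM), and 6 of the 7 injury markers fell (sums 457 to 905 CPM). Of the fibroblast markers 4 of 5 fell, and all 5 fat markers fell, from 336 to 629 to 37.9 to 211 CPM summed. Adrenal markers, led by Star, summed to 64.4 CPM in co-treated replicate 6 and to 1.51 to 2.70 CPM in the other 5. Without that kidney the 7 members still rose and Prdx3 still fell. What these shifts contributed was not tested.

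Both drugs against vehicle asks how far the co-treated kidneys stood from vehicle. With both drugs 7 of the 10 genes were lower than with vehicle, 1 was higher and 2 did not pass. Of the 7, 6 were also lower with cisplatin alone, and Prdx3 was not. Of all genes 29.8% were higher and 29.9% lower. Groups were apart for 6 members lower and 1 higher, against 18.5% and 18.9% of all genes. The members' median was -0.30, and that of all genes -0.00. This comparison shares its vehicle kidneys with cisplatin against vehicle and its co-treated kidneys with both drugs against cisplatin, so the values are set side by side only.

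Sod2 stood at -0.70 (adjusted p = 6.44e-10) against vehicle with both drugs, and at -1.16 with cisplatin alone. For Sod1 the log2 fold changes were -0.34 (adjusted p = 6.12e-05) and -0.70, and for Cat -0.22 (adjusted p = 0.00136) and -0.50. All 3 were apart from vehicle in both comparisons. Gpx1 stood at -0.36 (adjusted p = 0.0114) and -0.75, with overlap only in the first. Gpx3 did not pass with both drugs (-0.08, 95% interval -0.23 to 0.07, adjusted p = 0.366), and nor did Sod3 (0.18, 95% interval -0.04 to 0.39, adjusted p = 0.149). Sod3 passed as higher without co-treated replicate 3 (0.25, adjusted p = 0.0196).

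Gpx4 was the member that ended above vehicle, at 104 ± 8.30 CPM (SD, n = 6) against 74.3 ± 5.82 CPM (SD, n = 5), without overlap (log2 fold change 0.48, SE 0.0641, adjusted p = 1.05e-06). The peroxiredoxins among the members ended below vehicle. Prdx3 was at -0.31 (adjusted p = 3.83e-05), Prdx1 at -0.30 (adjusted p = 2.97e-05) and Prdx5 at -0.39 (adjusted p = 2.47e-05), each apart from vehicle. Thus Prdx3 differed from vehicle with both drugs and did not pass with cisplatin alone. The difference between those 2 results is the one tested directly above, with both drugs against cisplatin.

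Tubule and injury markers stayed away from vehicle. With both drugs all 12 proximal tubule and all 3 distal convoluted tubule markers were lower than with vehicle, 2 of 4 of the thick ascending limb were lower, and all 7 injury markers were higher. All 6 red blood cell, 5 fat and 4 T cell markers tested, 4 of 5 endothelial, 3 of 4 B cell and 2 of 3 neutrophil markers were lower, and 4 of 5 fibroblast markers were higher. Their share in the members' differences was not tested.

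Scaling by library size alone moved the median of all genes here by 0.16, to 0.16, with 7394 genes higher and 3525 lower against 5108 and 5114. Then 2 members were higher and 5 lower, since Cat (-0.06) and Gpx1 (-0.21) no longer passed and Sod3 (0.33) did. Relative to that median these were -0.22, -0.37 and 0.18. Gpx1 also missed the threshold with the number series as a covariate (-0.26, adjusted p = 0.107) and in the 500s mice alone (-0.26, adjusted p = 0.205).

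**Figure D4:**
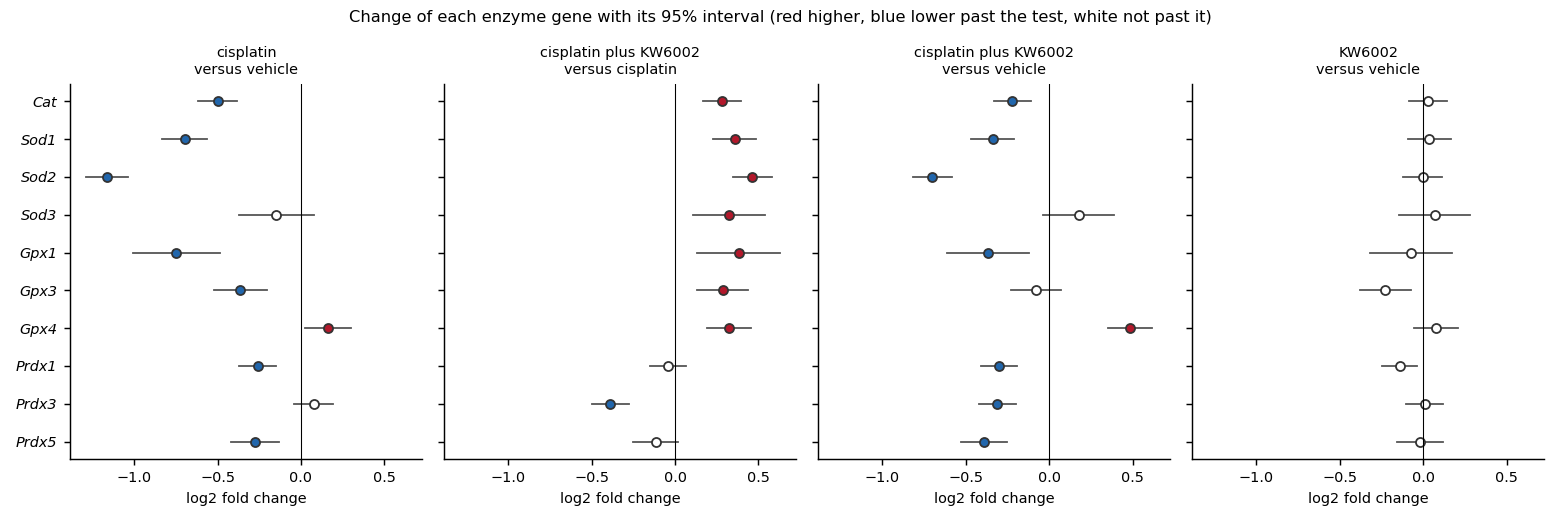
Log2 fold change of each enzyme gene with its 95% interval in 4 comparisons; filled points passed the test (red higher, blue lower) and white points did not. Sod2 stands at -1.16 with cisplatin against vehicle and at 0.46 with both drugs against cisplatin, and no point is filled for KW6002 against vehicle. With scaling by library size alone, Gpx3, Prdx1 and Prdx5 in the first panel and Cat and Gpx1 in the third lose their fill, while Prdx3 in the first, Prdx5 in the second and Sod3 in the third gain one.

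KW6002 against vehicle asks what the drug does without cisplatin. By edgeR, 0 of the 10 genes passed. Of all genes 3 were higher (0.0175%) and 0 lower (0%). Without vehicle replicate 3 these counts were 25 and 39, and with the number series as a covariate 22 and 18. In the main model 1930 genes had an unadjusted p below 0.05. Among the members 2 did, Gpx3 and Prdx1, and DESeq2 called Gpx3 as lower (-0.22, adjusted p = 0.0243), 1 member in all, where it called 46 of 18199 genes higher and 53 lower. Gpx3 had 21111, 21916 and 23211 CPM with KW6002 as lowest, median and highest value. Only the highest of the 6 kidneys reached the vehicle range, and barely, with a log2 fold change of -0.23 (95% interval -0.38 to -0.07, adjusted p = 0.261).

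Prdx1 had 409, 416 and 449 CPM with KW6002, all under the lowest vehicle kidney of 451 CPM. It was the 1 member without overlap in this comparison, where 0.992% of all genes were lower and 0.391% higher without overlap. Its log2 fold change was -0.14 (95% interval -0.25 to -0.03, adjusted p = 0.314). The other 8 members had overlapping groups. They ran from -0.07 for Gpx1 (95% interval -0.32 to 0.17) to 0.08 for Gpx4 (-0.05 to 0.21). Sod2, at 276, 301 and 319 CPM with KW6002, had a log2 fold change of -0.00 (95% interval -0.12 to 0.11). The members' median was 0.00, and that of all genes -0.00. By edgeR 0 of 12 proximal tubule markers (0 at an unadjusted p below 0.05, 0 by DESeq2) and 0 of 7 injury markers (1 and 0) passed, as did 0 of 5 fat (3 and 0) and 0 of 5 intercalated cell markers (2 and 2). Proximal tubule sums were 46357 to 51933 CPM with KW6002.

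The effect of KW6002 was compared directly between mice with and without cisplatin, as the difference of the 2 log2 fold changes. For 7 members it passed: the effect was higher with cisplatin for 6 (Cat, Sod1, Sod2, Gpx1, Gpx3 and Gpx4) and lower for 1 (Prdx3). Of all genes 22.8% were higher and 19.9% lower. The members' median difference was 0.25. Gpx3 had the largest, 0.51 (SE 0.104, adjusted p = 4.18e-04), made of 0.29 with cisplatin and -0.23 without.

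The other differences were 0.47 for Sod2 (adjusted p = 7.24e-05), 0.46 for Gpx1 (adjusted p = 0.0327), 0.32 for Sod1 (adjusted p = 0.00512), 0.25 for Cat (adjusted p = 0.0115) and 0.24 for Gpx4 (adjusted p = 0.0325). Prdx3 stood at -0.40 (adjusted p = 2.52e-04). Sod3 (0.26, 95% interval -0.05 to 0.56), Prdx1 (0.10, -0.05 to 0.25) and Prdx5 (-0.10, -0.29 to 0.10) did not pass. In mice without cisplatin 0 of the 10 passed by edgeR, 2 had an unadjusted p below 0.05, and DESeq2 called 1, Gpx3 as lower.

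Support was thin for part of these differences. The Gpx1 difference missed the threshold without vehicle replicate 1 or 2, KW6002 replicate 4 or 5, cisplatin replicate 1 or 3, or co-treated replicate 3 or 6 (0.35 to 0.44, adjusted p = 0.0511 to 0.0681). The Gpx4 difference missed it without vehicle replicate 1, 3 or 4, KW6002 replicate 5, cisplatin replicate 1, or co-treated replicate 3, 4, 5 or 6 (0.20 to 0.24, adjusted p = 0.0501 to 0.0722). Sod3 passed without co-treated replicate 3 (0.33). In the settings other than leaving out a library, the Sod3 difference ran from 0.18 to 0.45 and did not pass. In the 500s mice alone, with 2 vehicle and 3 KW6002 kidneys, Cat (0.28), Gpx1 (0.46) and Gpx4 (0.24) did not pass, which left 3 higher and 1 lower. Of the 17761 genes tested in those mice, 3242 were higher and 2820 lower. With library totals in place of TMM, Gpx1 (0.38) and Gpx4 (0.17) did not pass, and of all genes 3041 were higher and 4107 lower, against 3902 and 3410 with TMM.

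Ratios within a library do not depend on the scaling, and they showed how the balance between members moved. The ratio of Sod2 to Sod1 counts was 1.13 ± 0.0554 with vehicle, 1.10 ± 0.0409 with KW6002, 0.823 ± 0.0702 with cisplatin and 0.881 ± 0.0372 with both drugs (mean and SD). No kidney given cisplatin exceeded 0.934, and every other kidney was above that. The RNA of the mitochondrial dismutase thus fell by more than that of the cytosolic one. The ratio of Gpx4 to Gpx1 counts was 0.0422 to 0.0486 with vehicle and 0.0456 to 0.0530 with KW6002, but 0.0773 to 0.0906 with cisplatin and 0.0635 to 0.105 with both drugs.

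Prdx3 and Sod2 both code for mitochondrial enzymes. In whole kidney, the ratio of Prdx3 to Sod2 counts was 0.680 to 0.766 with vehicle and 1.31 to 1.92 with cisplatin. With both drugs it was 0.865 to 0.977. The 3 ranges were apart, with the co-treated kidneys between the other groups. Prdx3 to Prdx5 was 0.168 to 0.189 with vehicle, 0.199 to 0.246 with cisplatin and 0.179 to 0.201 with both drugs, and of these 2 only cisplatin was apart from vehicle. These ratios were not tested.

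The genes around the 10 members were read from 10 further lists holding 123 genes, of which 111 were tested. The list counts below stand beside these shares of all genes tested. With cisplatin against vehicle 34.6% were higher and 35.9% lower. With both drugs against cisplatin 28.6% were higher and 27.2% lower. The families themselves had 9 further genes, 6 of them tested. With cisplatin 3 rose and 3 fell: Prdx6 1.04, Gpx7 0.99 and Gpx8 0.56 rose, while Gpx6 -1.77, Prdx4 -0.76 and Prdx2 -0.29 fell. Prdx6, a peroxiredoxin that also acts on phospholipids, went from 186 ± 12.1 CPM (SD, n = 5) to 383 ± 48.8 CPM (SD, n = 5), and Gpx6, a glutathione peroxidase close to Gpx3 in sequence, from 49.8 ± 12.1 CPM (SD, n = 5) to 14.6 ± 2.10 CPM (SD, n = 5). Prdx4, Gpx7 and Gpx8 act in the endoplasmic reticulum and Prdx2 in the cytosol. By library size alone Prdx2 did not pass, and the other 5 kept their direction. In the 500s mice alone Gpx7 was 1.51. Against cisplatin, both drugs gave 2 that rose and 4 that fell (Gpx6 1.05, Prdx4 0.46, Prdx2 -0.20, Gpx8 -0.71, Gpx7 -0.73 and Prdx6 -0.90). Gpx2, Gpx5 and Prdx6b had too few counts to be tested, with means of at most 0.106 CPM in any group.

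Peroxisomal oxidases make hydrogen peroxide in the organelle that holds catalase. Of 8 tested, 5 fell and 2 rose with cisplatin, and the median over the 8 was -1.60. Those that fell were Hao2 -3.71, Dao -2.89, Ddo -1.70, Pipox -1.68 and Acox3 -1.53, while Paox rose (0.49, and 0.77 in the 500s mice alone) and Acox2 stood at -0.17 and did not pass. Hao2 oxidizes hydroxy acids and Dao D-amino acids. Dao went from 367 ± 8.70 CPM (SD, n = 5) to 49.5 ± 18.4 CPM (SD, n = 5). When KW6002 was added to cisplatin 5 of the 8 rose and 1 fell. Those that rose were Dao 2.51, Hao2 2.43, Pipox 1.24, Acox3 0.61 and Ddo 0.29, while Paox (-0.24) and Acox2 (-0.11) did not pass. The 5 that fell with cisplatin are the 5 that rose with KW6002 added, in comparisons that share the cisplatin kidneys. Hao1 and Uox had too few counts to be tested.

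Peroxisome biogenesis genes, the Pex family, moved less. Of 16 tested, 10 fell and 3 rose with cisplatin, a median of -0.21. By library size alone the median was 0.00, with 7 fallen and 6 risen. The largest changes were Pex11a 1.37 and Pex10 -0.86, of which Pex11a drives peroxisome division and Pex10 takes part in protein import. Of the 16, 6 rose and 7 fell with both drugs against cisplatin (4 and 7 by library size alone), with Pex11a at -0.71 and Pex10 at 0.34.

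Selenium supply bears on the members that carry selenocysteine, Gpx1, Gpx3 and Gpx4. Of 11 genes, 9 fell and 2 rose with cisplatin, with a median of -0.50 (7 and 2 by library size alone). The largest declines were in Lrp2 -2.66 and Selenop -2.10: Selenop codes for the selenium carrier protein, and Lrp2 for the receptor that takes it up in proximal tubule, and it also counts among the tubule markers above. Selenop went from 2563 ± 229 CPM (SD, n = 5) to 597 ± 79.3 CPM (SD, n = 5). The enzymes of selenocysteine synthesis fell as well (Sepsecs -0.83, Sephs2 -0.50 and Pstk -0.36), as did the insertion factors Eefsec -0.76, Secisbp2 -0.57 and Secisbp2l -0.27 and the recycling enzyme Scly (-0.50). The 2 that rose were Lrp8 2.95 and Trnau1ap 0.51, and Lrp8 is another Selenop receptor. Pstk and Secisbp2l did not pass by library size alone. Pstk also missed the threshold in the 500s mice alone (-0.25), and Secisbp2l without vehicle replicate 4 (-0.24) or 5 (-0.22). Secisbp2l was further from 0 with the number series as a covariate (-0.49) and in the 500s mice alone (-0.41), and passed in each.

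Of the 11 genes, 6 rose with both drugs against cisplatin (Lrp2 1.36, Eefsec 0.98, Secisbp2 0.48, Sephs2 0.45, Selenop 0.44 and Sepsecs 0.40) and Trnau1ap fell (-0.33). Lrp8 (-0.14), Secisbp2l (0.07), Pstk (0.06) and Scly (0.01) did not pass. Of 14 other selenoprotein genes tested, 6 rose and 6 fell with cisplatin (7 and 3 by library size alone), led by the deiodinases Dio1 -3.70 and Dio3 2.34, which act on thyroid hormone. KW6002 on top of cisplatin gave 5 that rose and 7 that fell, with Dio1 at 1.17 and Dio3 at -0.91.

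The thioredoxin and glutaredoxin system recharges peroxiredoxins. Of its 15 genes 10 rose and 4 fell with cisplatin, with a median of 0.53. The largest changes were Srxn1 3.78 and Txnrd1 2.02, sulfiredoxin, which repairs overoxidized peroxiredoxins, and cytosolic thioredoxin reductase. Srxn1 went from 69.1 ± 4.61 CPM (SD, n = 5) to 947 ± 172 CPM (SD, n = 5), and Txnrd1 from 191 ± 9.82 CPM (SD, n = 5) to 775 ± 93.3 CPM (SD, n = 5). With KW6002 added 6 rose and 7 fell, with Srxn1 at -1.33 and Txnrd1 at -0.62 against cisplatin. Among the peroxiredoxins tested with TMM scaling, Prdx6 rose with cisplatin too, Prdx3 did not pass, and Prdx1, Prdx2, Prdx4 and Prdx5 fell.

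Glutathione and NADPH supply serves the glutathione peroxidases. Of 16 genes 9 rose and 7 fell with cisplatin, with a median of 0.28. The largest changes were Slc7a11 3.64 and Gclc 2.47, the cystine importer and the rate-limiting ligase of glutathione synthesis. Gclc went from 272 ± 11.1 CPM (SD, n = 5) to 1506 ± 159 CPM (SD, n = 5), while Slc7a11 stayed low, at 0.670 and 8.40 CPM. Adding KW6002 to cisplatin gave 5 that rose and 4 that fell, a balance that was 4 and 5 by library size alone and 4 and 4 in the 500s mice alone, with Slc7a11 at -2.71 and Gclc at -0.43.

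Copper delivery concerns Sod1 and Sod3. Of 6 genes 3 fell and 1 rose with cisplatin, but 1 fell and 2 rose by library size alone. The copper chaperone Atox1 rose (1.27) and the copper importer Slc31a1 fell (-0.83). With KW6002 added, 2 rose and 2 fell, with Atox1 at -0.74 and Slc31a1 at 0.30.

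NADPH oxidases make superoxide or hydrogen peroxide. Of 9 tested, 4 fell and 2 rose with cisplatin, and 3 fell and 3 rose by library size alone. In the 500s mice alone 2 fell and 3 rose. The largest changes were Nox4 -2.42 and Duox1 -2.23, but Duox1 did not pass in the 500s mice alone (-1.21, adjusted p = 0.0636). Nox4, the main oxidase of kidney tubules, went from 453 to 660.4 CPM with vehicle to 89.2 to 139.7 with cisplatin and stood at 362 CPM with both drugs (1.82 against cisplatin), while Duox1 was near 0 throughout, at 0.596 CPM with vehicle. Against cisplatin 1 rose and 4 fell with both drugs. Another 6 genes of this list had too few counts to be tested.

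**Figure D5:**
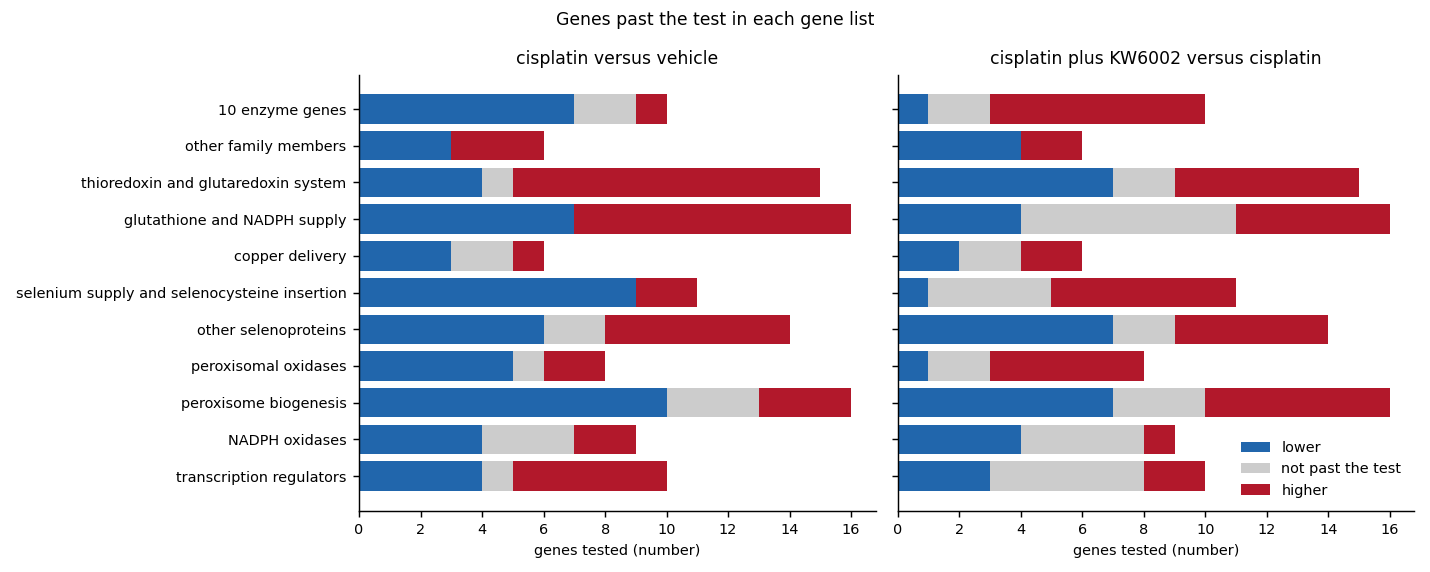
Number of genes tested in the 10 enzyme genes and in each further list, split into lower (blue), not past the test (grey) and higher (red), for cisplatin against vehicle (left) and both drugs against cisplatin (right). Both sides use the cisplatin kidneys. Among all genes tested, 34.6% were higher and 35.9% lower on the left, and 28.6% higher and 27.2% lower on the right. Of the enzyme genes 7 fell on the left and 7 rose on the right, with 5 genes in common. By library size alone the majority turns for copper delivery on the left and for glutathione and NADPH supply on the right, and on the left other selenoproteins become mostly higher and NADPH oxidases even. In the 500s mice alone NADPH oxidases on the left are 3 higher and 2 lower.

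Of 10 transcription regulators 5 rose and 4 fell with cisplatin. Nfe2l2, the main activator of antioxidant genes, rose (1.38), from 115 ± 10.7 CPM (SD, n = 5) to 300.0 ± 19.1 CPM (SD, n = 5). Its inhibitor Keap1 stood at -0.15 (adjusted p = 0.00206) and did not pass by library size alone, and the repressor Bach1 rose by 0.36. Ppara 0.89 and Foxo1 0.52 rose too. Foxo3 passed as higher (0.49), but in the 500s mice alone it was 0.01 (adjusted p = 0.962), which left 4 higher and 4 lower. Foxo3 also missed the threshold without vehicle replicate 1, 2 or 3 or cisplatin replicate 2, 4 or 5 (0.38 to 0.50, adjusted p = 0.0503 to 0.108). The coactivators of mitochondrial genes fell (Ppargc1a -0.93 and Ppargc1b -0.87), as did Foxo4 (-0.27, not past the test by library size alone). Nfe2l1 did not pass (0.08) with TMM and rose by library size alone, which left 6 higher and 2 lower. Once KW6002 was added to cisplatin, 2 rose (Ppargc1a 0.51 and Keap1 0.32) and 3 fell (Ppara -0.59, Nfe2l2 -0.58 and Foxo4 -0.27). Bach1 (0.00), Foxo1 (0.01), Foxo3 (-0.04), Nfe2l1 (-0.15) and Ppargc1b (-0.19) did not pass. Ppargc1b passed as lower by library size alone and without co-treated replicate 4 (-0.25). Nfe2l1 passed as lower in 8 of the 9 other settings, DESeq2, library size alone and the 500s mice among them, and without vehicle replicate 2, 4 or 5, KW6002 replicate 6, or co-treated replicate 3 or 6 (-0.17 to -0.14). With KW6002 against vehicle, 0 of the 111 tested genes of all 10 lists passed by edgeR, 10 had an unadjusted p below 0.05, and DESeq2 called 0.

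Against vehicle, both drugs gave the further lists these counts of genes higher and lower: 0 and 3 of the families, 0 and 5 of the peroxisomal oxidases, 1 and 9 of peroxisome biogenesis, 3 and 5 of selenium supply, and 4 and 4 of the other selenoproteins. The thioredoxin system had 7 and 2, glutathione and NADPH supply 8 and 6, copper delivery 3 and 3, NADPH oxidases 1 and 5, and the regulators 5 and 3. Among all genes tested, 29.8% were higher and 29.9% lower, and several of these list counts lie near those shares. By library size alone the thioredoxin system had 11 and 1, peroxisome biogenesis 3 and 5, NADPH oxidases 1 and 3, glutathione and NADPH supply 9 and 5, selenium supply 3 and 4, and the regulators 6 and 3. With that scaling the other selenoproteins had 7 and 3, copper delivery 3 and 2, the families 1 and 2, with Prdx6 the 1 that rose, and the oxidases 1 and 4, with Paox the 1 that rose. In the 500s mice alone the families had 1 and 3, the oxidases 1 and 4, copper delivery 1 and 2, selenium supply 1 and 5, the thioredoxin system 6 and 4, NADPH oxidases 0 and 1, and the regulators 4 and 4. The 0 counts are by edgeR. In the families 3 of 6 genes in both directions had an unadjusted p below 0.05 and DESeq2 called 4, and among the oxidases 6 of 8 did and DESeq2 called 6.

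Some genes followed the pattern of a member over the 4 groups closely. The measure was the root mean square difference between group means of log2 CPM, each gene centred on its own mean, over 10429 other genes. Nearest to Cat were Alkbh7 (0.00883), Ankmy2 (0.0123) and Agpat3 (0.0125). Sod2 was followed by Pxmp2 (0.0184), Acsf3 (0.0205) and Dlec1 (0.0205), and Gpx3 by Dll1 (0.0237), Pdzk1ip1 (0.0255) and Nuak1 (0.0305). Closest to Prdx1 were Gyg (0.00560), Arhgap12 (0.0101) and D630039A03Rik (0.0167). With 4 group means and so many genes, close matches arise readily, and no shared function or control is meant.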

How the data were processed

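Polyadenylated RNA of 22 mouse kidneys was sequenced by the authors as single reads of 50 bases. Per the labels and the paper's methods, they aligned with STAR to mm10 and counted with HTSeq 0.6.1p1. The library kit was stranded, and the strand option of the counting was not stated. Each deposited value is a count: the reads of 1 library that the authors assigned to 1 gene, without any normalization. Reads shared by copies of a gene were not counted for either. Another 66 columns without name or value were not used. Symbols, positions and lengths came from GENCODE M21. Genes were kept by filterByExpr by group (17131 of 32858), scaled by TMM and tested with edgeR 4.0.16 (R 4.3.3) by quasi-likelihood F tests with 1 mean per group, and p-values were adjusted by Benjamini-Hochberg over all genes tested. The 5 comparisons are those of the report. Tested on simulated data for cisplatin against vehicle (16840 genes), the model recovered 92 of 100 genes changed to 1.5 times and 98 of 100 changed to 0.5 times, with 9 false calls. In the real comparison far more genes passed, 5930 higher and 6155 lower. Most member changes were also smaller than those simulated, so the simulation does not measure how well such changes are found in these data. Alternatives were DESeq2 1.42.0, relative log expression factors, scaling by totals, leaving out the filter, a stricter filter of 10 counts in all libraries, fits of the compared groups by themselves, a replicate block, a covariate for the label series, the 500s mice alone, and each library left out. Members and lists were chosen with earlier results of these data known. Named genes were all members, all genes of 4 lists (other family members, peroxisomal oxidases except 1 left out of the text, selenium supply, regulators), of each other list the 2 with the largest change past the test in cisplatin against vehicle, and the 3 genes most like Cat, Sod2, Gpx3 and Prdx1 whose mean log2 CPM was 3 or more. Figures were drawn with matplotlib 3.10.9.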

Additional observations from a re-analysis of the deposited data

Results flagged for a closer look

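In 40 sets of libraries (10 genes in 4 groups), 5 held a kidney far from the others of its group by Dixon's gap ratio, where chance gives about 1 in 20. Sod2 in co-treated replicate 6 was at 219 CPM, with the others at 173 to 180.1. Prdx5 in the same kidney was at 1056 CPM, with the others at 848 to 901. Without it, Sod2 was 0.41 against cisplatin in place of 0.46, and Prdx5 was -0.17 in place of -0.12. Gpx4 in vehicle replicate 5 was at 64.3 CPM, with the others at 74.9 to 79.0. Gpx4 in cisplatin replicate 1 was at 72.1 CPM, with the others at 84.4 to 86.6. Prdx1 in vehicle replicate 4 was at 507 CPM, with the others at 451 to 460.0. No cause was tested.

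The KW6002 effect differed between mice with and without cisplatin for 7 genes, by the test of that difference on the log2 scale. It was more positive with cisplatin for Cat (0.25), Sod1 (0.32), Sod2 (0.47), Gpx1 (0.46), Gpx3 (0.51) and Gpx4 (0.24). For Prdx3 it was lower (-0.40). Of all genes, 22.8% were higher and 19.9% lower in this difference. The Gpx1 difference did not pass without vehicle replicate 1 or 2, KW6002 replicate 4 or 5, cisplatin replicate 1 or 3, or co-treated replicate 3 or 6 (0.35 to 0.44). The Gpx4 difference did not pass without vehicle replicate 1, 3 or 4, KW6002 replicate 5, cisplatin replicate 1, or co-treated replicate 3, 4, 5 or 6 (0.20 to 0.24). Neither passed with scaling by library size, and Cat, Gpx1 and Gpx4 did not pass in the 500s mice alone.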

How the results depend on the processing

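Of 1540 member values under 9 other settings and 22 libraries left out in turn, 1496 kept their call, 36 lost it, 8 gained one, and 0 called values changed sign. Another 16 changed sign without passing in either case. With library size only, the members past the test were 2 higher and 4 lower for cisplatin against vehicle, 2 lower for both drugs against cisplatin, and 2 higher for both drugs against vehicle. With no filter, 0 were higher for cisplatin against vehicle. DESeq2 gave 1 lower for KW6002 against vehicle. In the 500s mice alone, 3 were higher in the difference of KW6002 effects. The cause was not tested. With 1 library left out, the counts ran from 0 to 1 higher and 7 to 7 lower for cisplatin against vehicle, 7 to 7 higher and 1 to 2 lower for both drugs against cisplatin, 0 to 0 each way for KW6002 against vehicle, 1 to 2 higher and 7 to 7 lower for both drugs against vehicle, and 4 to 6 higher and 1 to 1 lower for the difference. With the replicate block, no member's call changed, and Sod2 was -1.16 for cisplatin against vehicle. Of 31 same-numbered pairs 7 had a residual correlation above 0.1 (range -0.175 to 0.405), 4 of them among the 5 pairs of vehicle with KW6002, whose replicate numbers follow the label series. Replicate numbers were not taken as pairs.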
